A study of Arabidopsis thaliana with 6 samples.

Results

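Starch and sugar transcripts are described here through 6 genes, chosen from the 13356 genes that the annotation ties to a probe set of their own and from 2 further probe sets whose genes are given by the choice itself. The 6 are APL3, GPT2, DPE1, BAM5, SWEET1 and SWEET4, each read from 1 probe set of an Affymetrix array that carries 22810 probe sets. For APL3, DPE1, SWEET1 and SWEET4 the probe set was the one with the highest mean over the arrays among those listed for that gene alone, and each gene had only 1 such probe set. BAM5 (245275_at, AT4G15210) and GPT2 (264400_at, AT1G61800) were taken by probe set, since the annotation lists no gene for these, and their names rest on that choice. The genes were chosen with the difference between the 2 groups known, so their group differences are given as a description, with no test.

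RNA came from Arabidopsis thaliana seedlings of the Col0 ecotype, 12 days old, raised on MS3 medium in 12 h light and 12 h dark. The wild type (WT, 3 arrays) was compared with the line labelled TOC1-ox (3 arrays), in which TOC1, an evening component of the plant clock, is overexpressed according to the name. Both groups were harvested in the dark, at zeitgeber time 15. The labels do not name the promoter that drives TOC1 or say whether the line is 1 transformant. The level of TOC1 itself was not analysed here, as the annotation lists the gene for no probe set. Values are log2 expression values made with GCRMA, which draws dim transcripts together near the bottom of the scale. The table runs from 1.42 to 15.46, and 36.5% of its values lie under 4, called dim here. At dim levels a fold change is not well defined.

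Leaves store part of the carbon fixed by day as starch in the chloroplast and break it down at night to maltose and glucose, which leave the plastid and feed sucrose synthesis. ADP-glucose pyrophosphorylase, of which APL3 is a large subunit, makes the sugar nucleotide from which starch grows, and GPT2 carries glucose 6-phosphate across the plastid envelope. DPE1 rearranges short glucans during breakdown, and BAM5 is a beta-amylase found outside the plastid. SWEET proteins let sugars pass membranes down their gradient. APL3, GPT2 and BAM5 are known as transcripts that sugar supply raises, and the clock is known to set the pace of starch breakdown at night.

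Within the groups some arrays stood apart, which touches every value below. TOC1-ox replicate 3 correlated across probe sets at 0.977 and 0.978 with TOC1-ox replicates 1 and 2, which correlated at 0.996 with each other, and at 0.981 with WT replicate 3. The spike-ins that control the labelling were highest on the 2 arrays numbered 3 (medians over 24 probe sets of 7.59 and 7.01, against 2.81 to 4.84 on the others). The mean log2 difference between 3′ and 5′ control probe sets, a sign of RNA quality, was 1.26 to 1.42 in WT and 1.25 to 1.43 in TOC1-ox, and was lowest on the arrays numbered 3 in each group. Of the root markers on the list used, 3 of 10 were listed, with a mean log2 value of 8.84 to 9.38 in WT and 9.43 to 9.96 in TOC1-ox, so the groups did not overlap. The leaf mesophyll list had 1 of 5 listed, RCA, at 13.14 to 14.07 in WT and 13.74 to 14.67 in TOC1-ox, and the seed list none of 8. PYK10, known from roots and hypocotyls, and RCA were above 13 on every array. The part of any of these in the results below was not tested. In whole seedlings, fewer cells of a type and less RNA per cell cannot be told apart.

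Of the 6 genes, 4 were higher in TOC1-ox seedlings and 2 were lower. The log2 differences of GPT2 and BAM5 were 6.38 and 9.71, the 3rd largest and the largest of the positive differences among 22746 probe sets. These ranks belong to the contrast the genes were chosen on. Sizes are also not well defined near the bottom of the scale. There lay WT replicates 1 and 2 for BAM5, but only WT replicate 1 for GPT2. APL3 and SWEET1 were higher by 1.86 and 1.62, DPE1 was lower by 0.89 and SWEET4 by 1.89. The groups did not overlap for any of the 6, and they did not overlap at 20.1% of all probe sets. Since the genes were chosen on this contrast, nothing is read from that count.

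**Figure D1:**
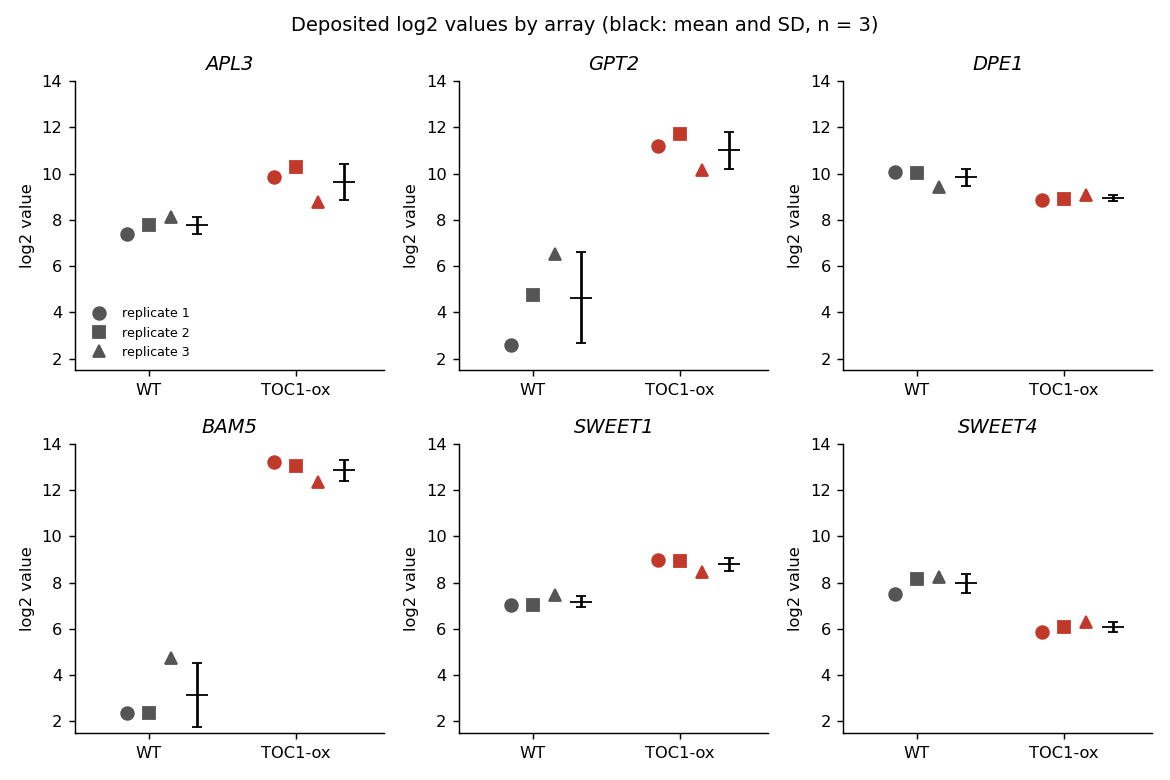
Deposited log2 values of the 6 genes on each array, WT in grey and TOC1-ox in red, with the replicate number as the symbol and the group mean and SD (n = 3) in black. The TOC1-ox values lie above all WT values for APL3, GPT2, BAM5 and SWEET1 and below them for DPE1 and SWEET4, and WT values of GPT2 spread from 2.61 to 6.53.

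Starch synthesis was represented by APL3 and GPT2. APL3 (AT4G39210) had log2 values of 7.40, 7.78 and 8.12 in WT replicates 1 to 3 and of 9.85, 10.28 and 8.75 in TOC1-ox replicates 1 to 3. The highest WT array and the lowest TOC1-ox array were both numbered 3, and only 0.64 lay between them. The means were 7.76 ± 0.36 and 9.63 ± 0.79 (SD, n = 3 each), a difference of 1.86 ± 0.45 (standard error of the limma fit) or 3.64-fold.

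GPT2 had 2.61, 4.77 and 6.53 in WT and 11.18, 11.72 and 10.14 in TOC1-ox, again for replicates 1 to 3. The WT arrays differed from each other by up to 3.92, the widest spread of the 6 genes, and WT replicate 1 was dim while WT replicate 3 was not. Even so the lowest TOC1-ox array was 3.61 above the highest WT array. The group means were 4.63 ± 1.96 and 11.01 ± 0.80 (SD, n = 3 each) and the difference was 6.38 ± 1.09 (standard error). The size of this rise on a linear scale is not well defined, because WT replicate 1 lies near the bottom of the scale.

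Starch and glucan breakdown was represented by DPE1, in the chloroplast, and by BAM5, outside it, and they lay in opposite directions. DPE1 (AT5G64860) had 10.08, 10.01 and 9.43 in WT replicates 1 to 3 and 8.86, 8.90 and 9.07 in TOC1-ox replicates 1 to 3. The TOC1-ox arrays lay within 0.22 of each other, and WT replicate 3 was the WT array closest to them, at a distance of 0.35. The means were 9.84 ± 0.36 and 8.94 ± 0.11 (SD, n = 3 each), so that TOC1-ox was lower by 0.89 ± 0.20 (standard error), or 1.86-fold.

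BAM5 had 2.35 and 2.34 in WT replicates 1 and 2, near the bottom of the scale, and 4.72 in WT replicate 3. In TOC1-ox replicates 1 to 3 it had 13.19, 13.03 and 12.33, far up the scale. No WT array came within 7.60 of a TOC1-ox array. The means were 3.14 ± 1.37 and 12.85 ± 0.46 (SD, n = 3 each) and the difference was 9.71 ± 0.75 (standard error). A fold is not given, as the transcript was dim on 2 of the 3 WT arrays.

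The sugar facilitators SWEET1 and SWEET4 also differed in direction. SWEET1 (AT1G21460), a glucose facilitator of the plasma membrane, had 7.02, 7.03 and 7.45 in WT replicates 1 to 3 and 8.96, 8.94 and 8.45 in TOC1-ox replicates 1 to 3. It had tight groups, with means of 7.17 ± 0.25 and 8.78 ± 0.29 (SD, n = 3 each), and 1.00 between the nearest arrays. The difference of 1.62 ± 0.20 (standard error) is 3.07-fold. SWEET4 (AT3G28007), a facilitator of hexoses known from the vascular tissue of roots and leaf veins, had 7.50, 8.16 and 8.25 in WT replicates 1 to 3 and 5.87, 6.07 and 6.29 in TOC1-ox replicates 1 to 3. Its means were 7.97 ± 0.41 and 6.08 ± 0.21 (SD, n = 3 each), lower in TOC1-ox by 1.89 ± 0.24 (standard error), or 3.71-fold, with 1.21 between the nearest arrays. Of the listed root markers, EXP7 and EXPA18 differed by 0.84 and 0.94 (limma, adjusted p = 0.129 and 0.266), with groups that did not overlap, and PYK10 by 0.04 (adjusted p = 0.94), with groups that did.

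**Figure D2:**
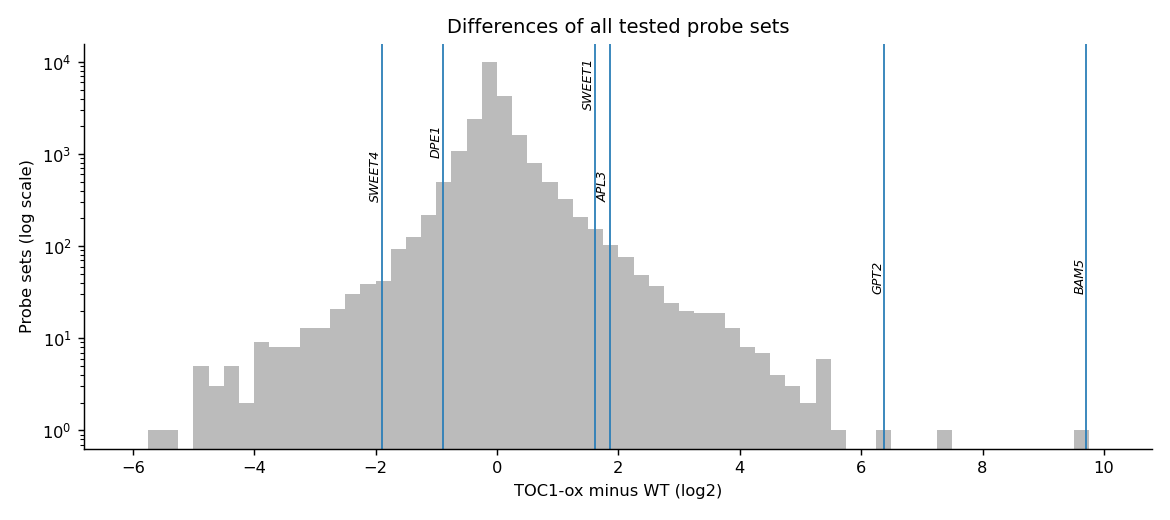
Number of probe sets (log scale) by the log2 difference between TOC1-ox and WT means, over 22746 probe sets, with blue lines at the 6 genes. BAM5 (9.71) and GPT2 (6.38) lie at the right end, and DPE1 (-0.89), SWEET4 (-1.89), SWEET1 (1.62) and APL3 (1.86) lie on the flanks of the distribution, whose median absolute difference is 0.15.

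Within the groups, the arrays numbered 3 often lay nearest the other group, for the 6 genes as for other probe sets. In TOC1-ox, replicate 3 was nearest the WT mean for 6 of the 6. This was also the case at 72.0% of the 1715 probe sets that differed by at least 1 on the log2 scale, which leave out DPE1. It was thus common on this array, and nothing particular to the 6 genes is read from it. TOC1-ox replicate 3 was lower than the mean of replicates 1 and 2 by 1.31 for both APL3 and GPT2. It was lower by 0.79 for BAM5 and by 0.50 for SWEET1, and higher by 0.19 for DPE1 and by 0.32 for SWEET4. Among the WT arrays, replicate 3 was nearest the TOC1-ox mean for 5 of the 6 genes, the exception being SWEET4, and at 47.5% of those 1715 probe sets.

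Taken between arrays of the same number, the differences therefore had different sizes. For APL3 they were 2.45, 2.50 and 0.64 on the arrays numbered 1, 2 and 3. For GPT2 they were 8.57, 6.95 and 3.61, and for BAM5 10.84, 10.69 and 7.60. SWEET1 gave 1.94, 1.91 and 1.00, and DPE1 gave -1.22, -1.11 and -0.35. SWEET4 was the only one of the 6 without its smallest difference on the arrays numbered 3, with -1.63, -2.09 and -1.96. All 6 kept their sign in each pair, which follows from groups that do not overlap. The labels do not say that arrays of a number are paired.

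**Figure D3:**
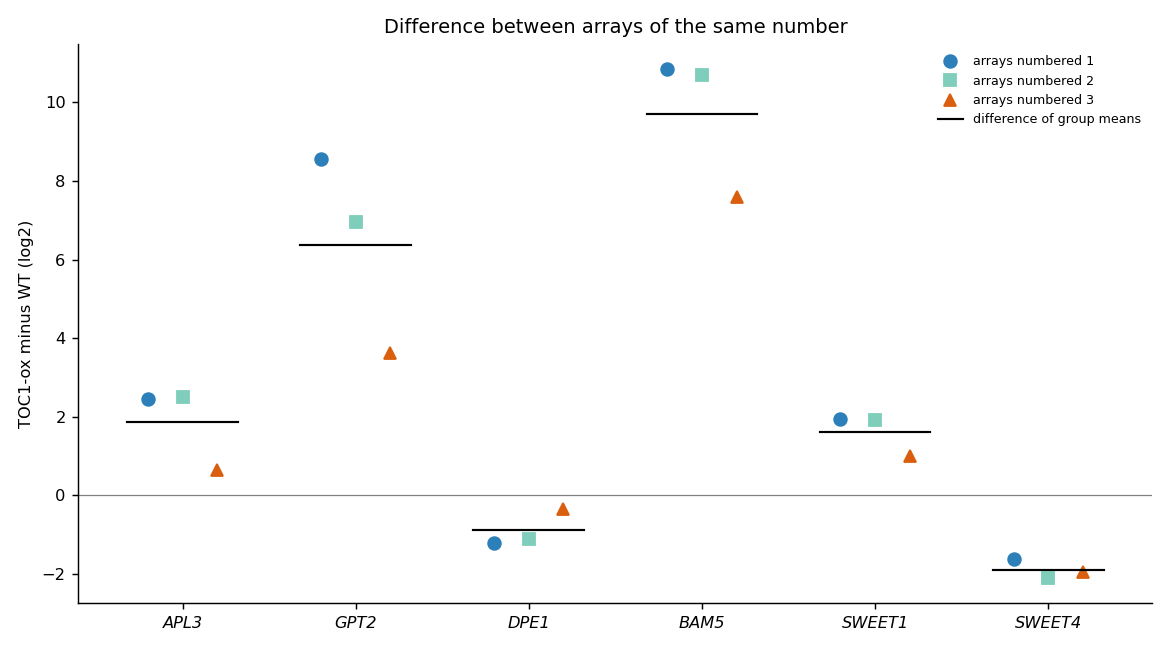
Log2 difference between the TOC1-ox and the WT array of the same replicate number for each of the 6 genes, with the difference of the group means as a black line. The arrays numbered 3 (orange triangles) give the smallest difference for APL3, GPT2, DPE1, BAM5 and SWEET1 but not for SWEET4.

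The rest of carbon metabolism was read from 7 lists of starch, sucrose, trehalose, sugar transport and sugar starvation genes. Without the 6 genes the lists hold 117 genes, of which 29 had a listed probe set. Of these 29, 1 passed the test, SPS4F (3.45%), against 1.78% of all probe sets (limma, Benjamini-Hochberg adjusted p under 0.05). A count of 1 is too small to compare the shares. The groups did not overlap for 6 of the 29 (20.7%), near the 20.1% of all probe sets. The median difference of the 29 was -0.01, beside -0.02 over all probe sets tested. Of the 29, 14 were SWEET genes, and 7 were dim on all arrays, where differences say little about the transcript. The median was itself the value of a dim gene, SWEET7, so it is not read as a lack of change.

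SPS4F (AT4G10120), a sucrose phosphate synthase, which makes the precursor of sucrose in the cytosol, rose in TOC1-ox. Its log2 values were 8.89, 8.92 and 8.69 in WT replicates 1 to 3 and 10.78, 10.79 and 10.10 in TOC1-ox replicates 1 to 3. The 2 groups were separated by 1.18, and replicate 3 was the lowest array in each. The rise was 1.72 ± 0.22 (standard error), or 3.30-fold (limma, adjusted p = 0.0412; from 0.00243 to 0.152 among the settings tried). It did not pass when any array but TOC1-ox replicate 3 was left out (adjusted p = 0.108 to 0.152). Of the other genes on its list, 2 were measured, the sucrose phosphatase gene SPP2 and the vacuolar invertase gene VI1 (AT1G62660), with differences of -0.02 and 0.13 (limma, adjusted p = 0.984 and 0.878).

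None of the 3 other measured starch synthesis genes passed. The branching enzyme gene SBE2.2 had 8.40 to 8.54 in WT and 8.97 to 9.39 in TOC1-ox, a difference of 0.70 ± 0.12 (standard error; limma, adjusted p = 0.0687). Without TOC1-ox replicate 3 it passed (adjusted p = 0.0145). Its limma adjusted p ran from 0.00815 to 0.218 among the settings tried. APL4, the closest relative of APL3 among the subunits of ADP-glucose pyrophosphorylase, differed by -0.22 (limma, adjusted p = 0.884), with 5.94, 5.46 and 5.57 in WT replicates 1 to 3 and 5.78, 5.83 and 4.69 in TOC1-ox replicates 1 to 3. Its groups overlapped. Those of APL3 did not, but APL3 was chosen on this contrast, so nothing is read from the comparison.

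Of the starch breakdown list, 3 other genes were measured and none passed. AT4G24450, a relative of the glucan, water dikinase that phosphorylates starch, had 7.02, 6.87 and 6.93 in WT and 9.90, 9.75 and 8.31 in TOC1-ox. That is 2.38 ± 0.45 (standard error; GWD2 on the list used; limma, adjusted p = 0.0842), and without TOC1-ox replicate 3 the gene passed (adjusted p = 0.00169). The limma adjusted p of AT4G24450 ran from 0.00169 to 0.253 among the settings tried. PWD (AT5G26570), the phosphoglucan, water dikinase of the chloroplast, differed by -0.11 (limma, adjusted p = 0.543). AMY1 was dim on every array.

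Most of the SWEET family could be measured: 14 of 15 genes beside SWEET1 and SWEET4. None of the 14 passed, and 6 of them were dim on all 6 arrays, with differences that say little about the transcript. The largest difference was that of SWEET15, also known as the senescence-associated gene SAG29, with 4.81, 6.96 and 6.85 in WT and 3.49 to 3.50 in TOC1-ox. It was lower by 2.71 ± 0.63 (standard error; limma, adjusted p = 0.123), and all 3 TOC1-ox values were dim. It passed without WT replicate 1 (adjusted p = 0.00899), with a mean of at least 4 (0.0394) and with array weights (0.0158). SWEET15 met the limit on the mean only through WT (mean 6.21, against 3.50 in TOC1-ox), so nothing is read from that pass. Array weights called 6182 of the 22746 probe sets. In the other settings SWEET15 did not pass, among them the arrays numbered 1 and 2 only (limma, adjusted p = 0.225), and its highest adjusted p was 0.341. SWEET14 differed by 1.24 ± 1.05 (limma, adjusted p = 0.693), with groups that overlapped widely: 3.78, 4.01 and 5.82 in WT and 6.79, 6.71 and 3.82 in TOC1-ox. TOC1-ox replicate 3 lay among the WT values, while among the arrays numbered 1 and 2 alone the gene passed (adjusted p = 0.0173). It also passed with array weights (limma, adjusted p = 0.0222) but in no other setting. Leaving out TOC1-ox replicate 3 alone did not bring SWEET14 under the threshold (limma, adjusted p = 0.139). SWEET2, named after its values were seen, had 5.87, 5.83 and 4.87 in WT replicates 1 to 3, 4.39 and 4.41 in TOC1-ox replicates 1 and 2 and 6.96 in replicate 3. It differed by -0.27 over all arrays (limma, adjusted p = 0.949) and by -1.45 among the arrays numbered 1 and 2 alone, where it passed (adjusted p = 0.0127). That setting called 2201 of the 22746 probe sets. SWEET2 passed in no other setting, among them array weights (limma, adjusted p = 0.0723) and all arrays but TOC1-ox replicate 3 (0.14). Among the 14, only SWEET15 had groups that did not overlap, with TOC1-ox values that were dim. The groups of SWEET1 and SWEET4 did not overlap either, and both genes were above 4 on every array. Both were chosen on this contrast, so nothing is read from their comparison with the 14.

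Other sugar transporters and the sugar starvation list gave no gene that passed. XPT, a plastid translocator of pentose phosphates, and TMT2, a sugar carrier of the vacuole membrane, differed by -0.69 and -0.49 (limma, adjusted p = 0.535 and 0.265), and 4 genes of that list were measured. AKINBETA1, a subunit of the energy-sensing kinase SnRK1, had 9.31, 9.48 and 8.54 in WT and 7.26 and 7.41 in TOC1-ox replicates 1 and 2. TOC1-ox replicate 3 lay 0.54 below the lowest WT array, and the gene was lower by 1.56 ± 0.33 in TOC1-ox (standard error; limma, adjusted p = 0.106). It passed without TOC1-ox replicate 3 (adjusted p = 0.0391). Among the settings tried, its limma adjusted p ran from 0.00333 to 0.309. MCCA, of leucine breakdown, differed by 0.06 (limma, adjusted p = 0.95). None of the 9 trehalose genes had a listed probe set.

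**Figure D4:**
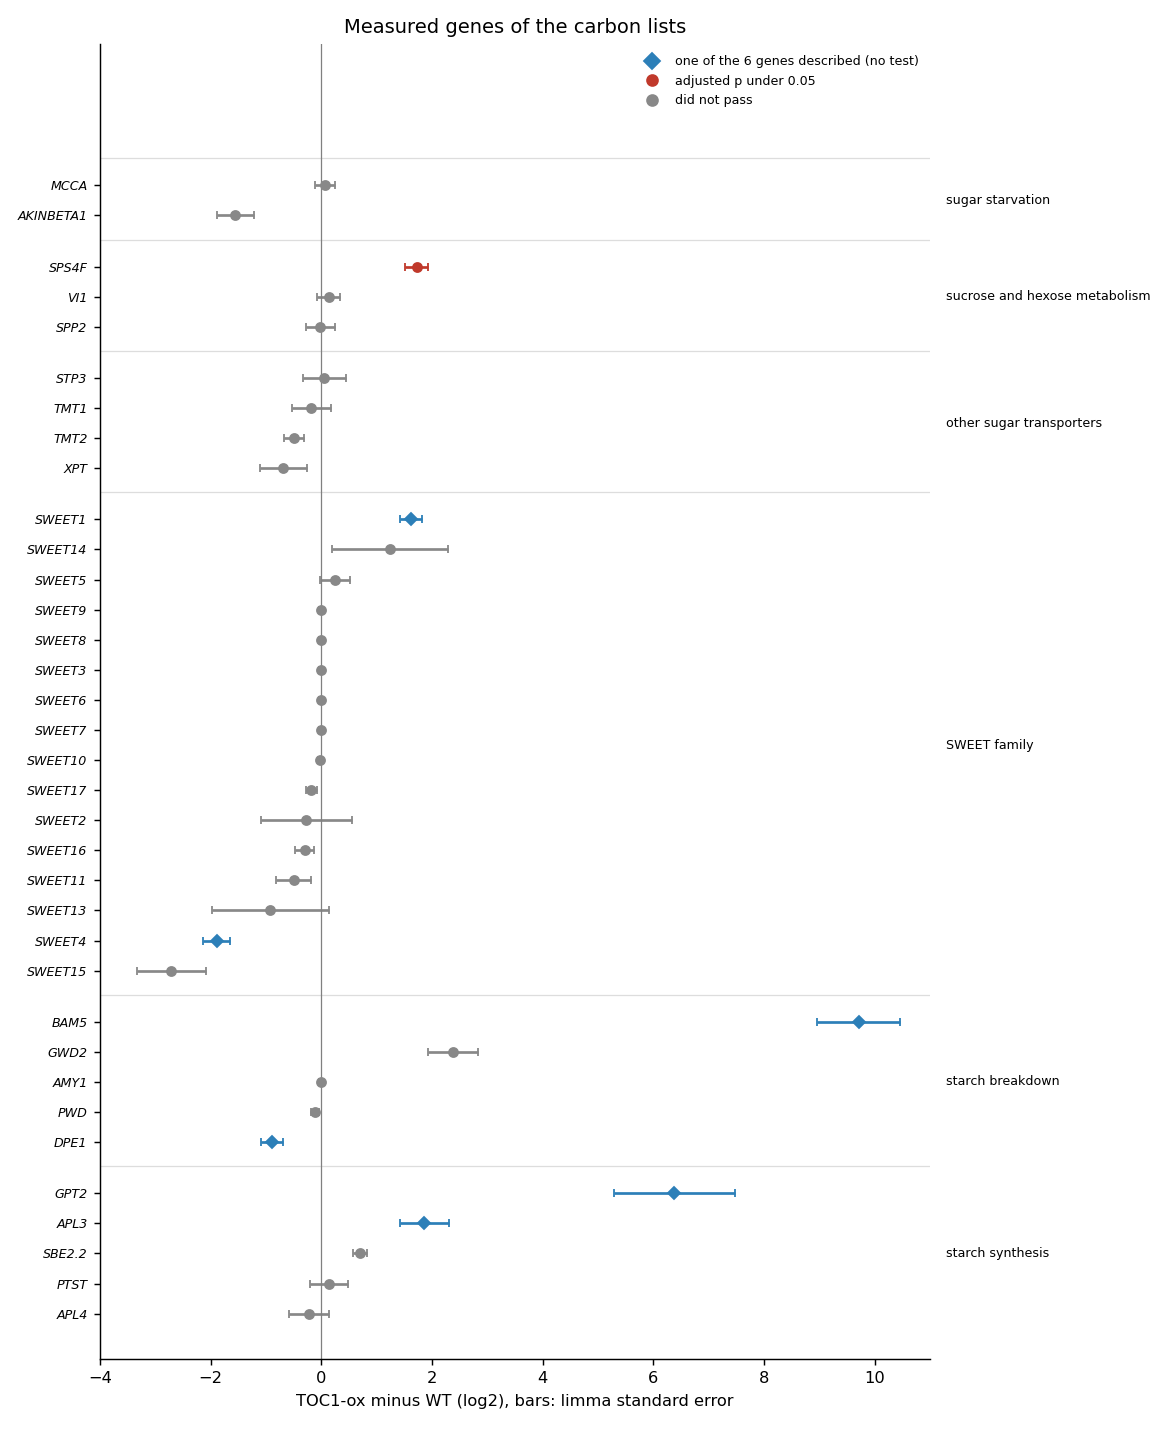
Log2 difference between TOC1-ox and WT with its standard error for each measured gene of the carbon lists; blue diamonds are the 6 genes described, the red point is SPS4F, which passed, and grey points did not pass. Most grey points lie near 0, among them 7 genes that were dim on all arrays. Of the grey points, SWEET15 (-2.71), AKINBETA1 (-1.56) and GWD2 (2.38) lie farthest from 0.

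Genes with a profile most like each of the 6 were sought among 1807 probe sets with a single gene, an SD over the arrays of at least 0.5 and a mean of at least 4. Likeness was Pearson's r over the 6 arrays, which is set largely by the distance between the groups and is given as a description. Nearest to APL3 were AT5G25840, AT1G47480 and AT2G31390 (r = 0.993 to 0.996). Nearest to GPT2 were AT5G64550, AT1G67800 and AT3G13650 (0.992 to 0.997). BAM5 was most like PR-1-LIKE, APS3, an ATP sulfurylase gene, and JAL23, of the jacalin-related lectins (0.993 to 0.999), whose differences were 3.35, 1.73 and 3.42. SWEET1 was most like AT3G19550, AT5G15070 and the beta-glucosidase gene BGLU44 (0.996 to 1.00). DPE1 was most like AT4G19530, AT3G59350 and AT4G17810 (0.990 to 0.996), and SWEET4 was most like AT1G62290, AT5G47610 and AT5G01075 (0.985 to 0.990). PR-1-LIKE, JAL23 and AT3G19550 had dim WT means (3.75, 3.17 and 2.77), and AT5G47610 had a dim TOC1-ox mean (2.65). These genes met the limit on the mean through the other group, and the sizes of their differences are not well defined. None of the 18 is a gene of the carbon lists. Only 29 of the 117 other genes on those lists had a listed probe set, and the SD and mean limits left fewer. Nothing is therefore read from their absence.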

How the data were processed

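The deposited table holds log2 values of 22810 probe sets on 6 arrays. Per the submitters' processing notes, the authors used GCRMA and limma, with versions not given in the sources used here. The 64 control probe sets were left out, and 22746 were tested. Group was the only term of a limma fit (version 3.58.1, R 4.3.3; lmFit, then eBayes; two-sided tests), with Benjamini-Hochberg adjustment over all probe sets and a threshold of 0.05. Prior and total degrees of freedom were 1.02 and 5.02. A single gene was listed for 13513 probe sets, several for 503 and none for 8730. Symbols and loci of the platform annotation were brought up to date through gene identifiers in a TAIR10.1 table; coordinates are not printed, as the array's build is not stated. A gene was read from its probe set with the highest mean.

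The 6 genes, the lists and the alternatives were chosen with earlier results of these data known. Named genes were the 6, and from each carbon list the called genes or, with none, the 2 with the largest difference. SPP2, VI1, AMY1 and SWEET2 were added after their values were seen. Markers were planned as counts and ranges, but EXP7, EXPA18, PYK10 and RCA are also named with values. The genes most like each of the 6 and the chromosome neighbours were named by the rules given with them. The series calls the samples biological replicates. The number of arrays limits the precision. Figures were drawn with matplotlib 3.10.9.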

Additional observations from a re-analysis of the deposited data

How the results depend on the processing

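The sign of the 6 genes' differences says nothing of stability, because their groups do not overlap, so that left-out or reweighted arrays cannot turn it. The replicate block and the term for the arrays numbered 3 give the main differences by construction, as does the mean over a gene's probe sets where 1 is listed. Over the settings the differences ranged from 1.54 to 2.48 for APL3, 5.37 to 7.76 for GPT2, -1.16 to -0.77 for DPE1, 9.31 to 10.77 for BAM5, 1.53 to 1.92 for SWEET1 and -2.13 to -1.75 for SWEET4; the largest sizes came from the arrays numbered 1 and 2 only, except that of SWEET4, which came without WT replicate 1. The calls over all probe sets, 405 with all arrays, numbered 6182 with array weights, 2201 among the arrays numbered 1 and 2 only, 852 and 641 with a mean of at least 4 and 6, 248 after quantile normalization and 262 with a robust prior. Leaving out each array gave 8 to 2955 calls, the lowest without WT replicate 2 and the highest without TOC1-ox replicate 3. The calls among the 29 other carbon genes, 1 with all arrays, were 8 with array weights, 6 among the arrays numbered 1 and 2 only, 4 and 3 with a mean of at least 4 and 6, 2 with a variance trend, 0 after quantile normalization and 0 with a robust prior, and 0 to 4 with each array left out, the 4 without TOC1-ox replicate 3. The limits on the mean also leave out probe sets, among them the 7 of the 29 genes that were dim on all arrays. Calls under these limits are therefore out of fewer probe sets and genes than in the other settings. The cause of the shifts in calls was not tested. With the replicate number as a replicate block, limma called 0 probe sets (4317 at an unadjusted p under 0.05, against 3725 without it) and 0 of the 29. Deviations from the group means correlated at 0.30, -0.01 and 0.08 between arrays numbered 1, 2 and 3. Between arrays of unlike numbers they correlated at -0.19 to 0.11. As not all of the first were above 0.1, the numbers were not taken to pair the arrays, but these correlations cannot settle it. Both arrays numbered 3 do share high spike-in values, and whether arrays of a number share a batch was not tested.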

Other observations

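Genes next to the 6 on their chromosomes were looked up after the data were seen, taking the nearest protein-coding gene on each side. Of the 12 neighbours, 6 had a listed probe set. AT5G64870, beside DPE1, was higher in TOC1-ox, with dim means of 2.54 and 3.55 (limma, adjusted p = 0.0329). It was the 1 of these 6 that passed, beside 1.78% of all probe sets, and 6 genes are too few to compare the shares. The other 5 differed by -0.24 to 0.17 and did not pass (adjusted p = 0.365 to 0.991).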
